A study of Mus musculus with 6 samples.

Results

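Lymphoid priming, the early expression of genes of the lymphoid programme in multipotent bone marrow progenitors, was followed here through 9 genes: *Il7r*, *Ccr9*, *Rag1*, *Rag2*, *Dntt*, *Satb1*, *Ikzf1*, *Ebf1* and *Tcf3*. The genes were chosen by name, and every non-control probe on the array that carried one of these names was taken. This gave 22 probes of the 56605 on the array, and 9 of the 37074 gene names. RNA came from sorted LSK cells, a bone marrow fraction (lineage-, Sca-1+, c-Kit+) with haematopoietic stem cells and multipotent progenitors, of C57BL/6 mice at postnatal days 6 to 8. The 3 control samples were labelled Atg5w/w;VaviCre+ and the 3 others Atg5f/f;VaviCre+ (Atg5f/f;Vav below), with 1 array per sample. Both groups carried Vav-iCre, a recombinase driven in the haematopoietic lineage from before birth, which deletes floxed *Atg5*, a gene needed for autophagosome formation, where it is present. Neither the study's methods nor the labels say whether a sample was 1 mouse or a pool. The p-values therefore measure the spread between samples.

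A multipotent progenitor that turns towards the lymphoid lineages opens some lymphoid genes before it loses its other potentials. Ikaros (*Ikzf1*) and the E proteins (*Tcf3*) act first and prime lymphoid loci, the chromatin organiser SATB1 promotes the same transition, and EBF1 later commits cells to the B lineage. The receptors encoded by *Il7r* and *Ccr9* receive interleukin-7 and a thymic chemokine, and the products of *Rag1*, *Rag2* and *Dntt* cut and diversify antigen receptor genes.

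Signals are given as log2 intensity minus the array's 75th percentile over non-control spots, so that 0 is the brightness of that percentile on its own array. A probe was tested where the scanner software found it well above background on 3 or more arrays of the 6, and a gene with several probes was represented by its brightest tested probe. Tests were those of limma, with Benjamini-Hochberg adjustment over all 32074 probes tested and a threshold of 0.05. The 75th percentile lay between 651.7 and 746.2 intensity units in control and between 620.3 and 881.4 in the other group, and 57.6% to 58.1% and 51.6% to 54.8% of the probes were well above background. The 6 arrays shared 1 slide, with each group in its own slide row, so row and genotype cannot be told apart. Control replicate 1 stood apart in stromal genes, with a summed signal of the stromal markers (relative to the 75th percentile, linear scale) of 2.17 against 30.7 and 24.1 on the other control arrays. On the arrays labelled Atg5f/f;Vav this sum was 0.964 to 1.30, and the 3 tested stromal markers of 4 were called lower, a call that none of them kept without replicate 2 or 3 of either group. One of them, *Col1a1*, was well above background on the 3 control arrays alone, and so passed the filter through that group. The part of stromal RNA in the values below was not tested. The single *Atg5* probe was higher, by 0.54 (log2; adjusted p = 0.0209, limma), in the arrays labelled as lacking the gene. Whether it lies in the deleted part was not determined, and every direction below rests on the labels. In bulk RNA, fewer cells of a type and less RNA per cell cannot be told apart.

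Of the 9 genes, 8 had a tested probe. Between the groups, *Ccr9* and *Ikzf1* were lower in the arrays labelled Atg5f/f;Vav and no gene was higher. Over all 20778 genes with a tested probe, 18.7% were called higher and 15.3% lower. Signals of the 2 groups were without overlap for 3 of the 8 genes, *Ccr9* and *Ikzf1* (lower) and *Tcf3* (higher), and for 55.9% of all tested genes. The median log2 difference was 0.10 over the 8 genes and −0.03 over all tested genes. Among the 18 tested probes, 4 were called, against 34.4% of all probes. The other 2 called probes belonged to *Satb1* (lower) and *Tcf3* (higher), in each case a dimmer probe of the gene. Without a filter on dim probes, neither *Ccr9* nor *Ikzf1* passed the threshold, and the *Ccr9* call was lost without control replicate 1, 2 or 3. Over the whole array, 330 probes were called without control replicate 1 and 251 without control replicate 2, against 11024 with all arrays. Loss of a call without either of these 2 arrays was thus general, here and below.

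**Figure D1:**
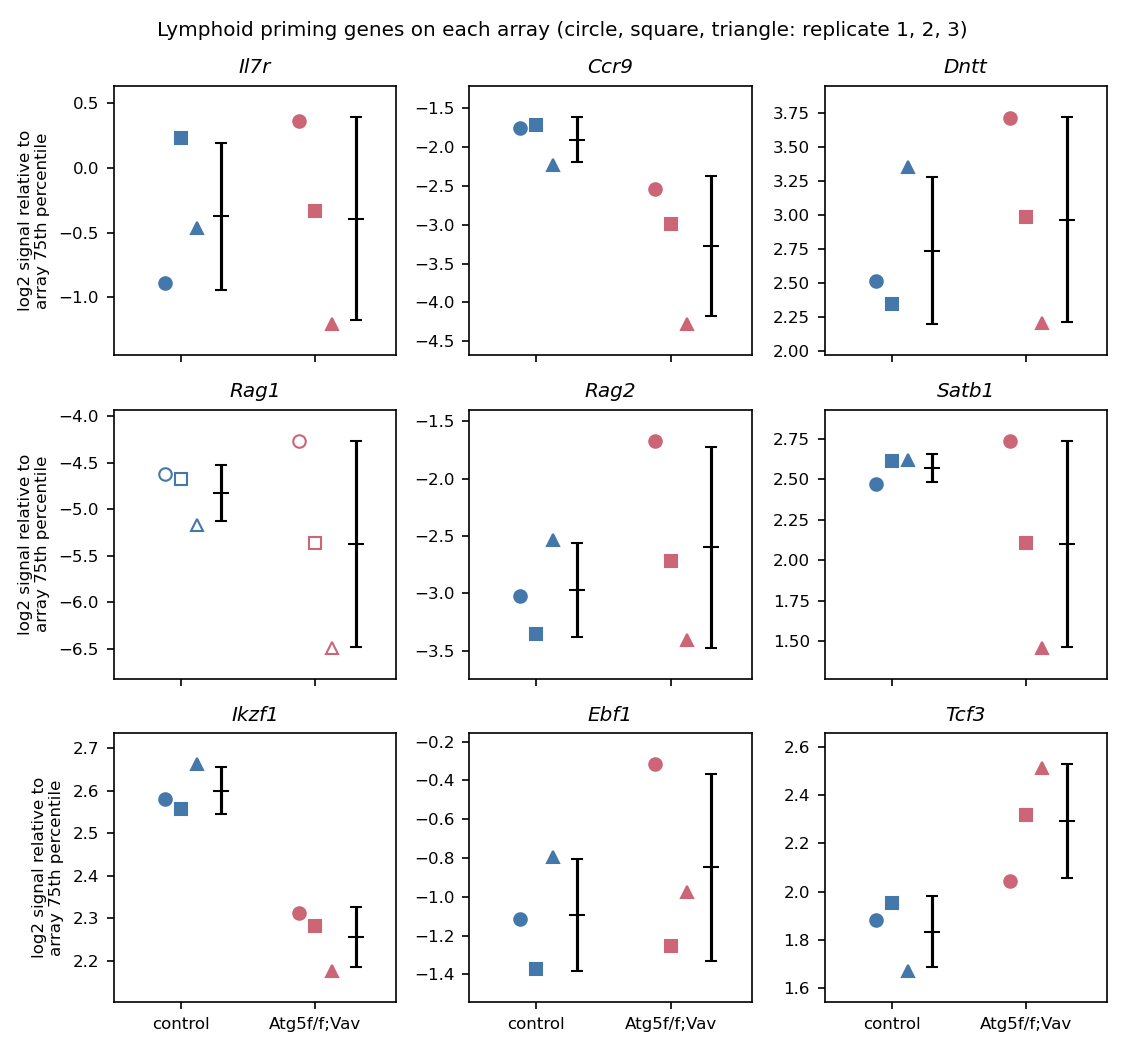
Log2 signal relative to the array's 75th percentile (y axis, scaled separately for each gene) of the 9 genes on the 3 control arrays (blue) and the 3 arrays labelled Atg5f/f;Vav (red), with bars for mean ± SD (n = 3). Open symbols mark a group in which not every array was well above background. The groups are apart for *Ccr9*, *Ikzf1* and *Tcf3*, and for *Satb1* the arrays labelled Atg5f/f;Vav span 1.28 where the controls span 0.15.

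*Il7r* encodes the α chain of the receptor for interleukin-7, the cytokine on which early B and T lymphopoiesis depends in mice. Its tested probe (mm9 chr15:9436822-9436881, minus strand) had log2 signals of −0.89, 0.23 and −0.47 in control and 0.36, −0.33 and −1.21 in the arrays labelled Atg5f/f;Vav. The highest and the lowest of the 6 values both belonged to the arrays labelled Atg5f/f;Vav, and the groups overlapped throughout. The difference was −0.02 (standard error 0.44, adjusted p = 0.976, limma). Its sign changed with the scaling. A second probe, designed on a transcript that is not a RefSeq mRNA, was not well above background on any array.

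*Ccr9* encodes the chemokine receptor that guides progenitors to the thymus and is also carried by plasmacytoid dendritic cells. Its tested probe (mm9 chr9:123690334-123690393, plus strand) had log2 signals of −1.75, −1.72 and −2.23 in control and −2.54, −3.00 and −4.28 in the others. All 3 arrays labelled Atg5f/f;Vav lay below all 3 controls, and replicate 3 lay furthest below. Its −4.28 was close to −4.42, the lowest signal of any probe well above background on that array. The size of the difference and the range over these arrays rest in part on this dim value. The difference was −1.37 (standard error 0.43, adjusted p = 0.0467, limma), a ratio of 0.387. The exact 2-sided permutation test gave p = 0.1, the smallest that 3 arrays against 3 allow. Background correction by normexp gave −0.79 (adjusted p = 0.00852). The adjusted p was 0.0819 after quantile normalisation, 0.0501 with the deposited values, and 0.0256 to 0.138 with 1 array left out, of which only the fits without Atg5f/f;Vav replicate 1 or 3 kept the call. Another probe, not designed on a RefSeq mRNA, was not well above background on any array.

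*Rag1* and *Rag2* encode the subunits of the recombinase that cuts antigen receptor genes. They are neighbours that are transcribed from opposite strands, and the single *Rag1* probe and the brighter *Rag2* probe lay 10268 bases apart on chromosome 2 of mm9. The only *Rag1* probe (chr2:101481051-101481110, minus strand) had log2 signals of −4.63, −4.68 and −5.18 in control and −4.27, −5.37 and −6.49 in the arrays labelled Atg5f/f;Vav. It was well above background on Atg5f/f;Vav replicate 1 alone, and was therefore not tested. The brighter *Rag2* probe (chr2:101470723-101470782, plus strand) had log2 signals of −3.03, −3.36 and −2.54 in control and −1.67, −2.71 and −3.41 in the others. It was well above background on all 6 arrays, and the array on which *Rag1* was detected also had the highest *Rag2* signal. The *Rag2* difference was 0.37 (standard error 0.44, adjusted p = 0.522, limma), within the spread between arrays. The second *Rag2* probe was not well above background on any array. The brighter probe, the only one by which a recombinase subunit was tested, has these 60 bases:
Rag2 probe: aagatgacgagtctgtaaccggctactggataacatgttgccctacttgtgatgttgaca

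*Dntt* encodes terminal deoxynucleotidyl transferase, which adds bases without a template at the joints of recombined antigen receptor genes. Its single probe (mm9 chr19:41133936-41133995, plus strand) had log2 signals of 2.52, 2.34 and 3.35 in control and 3.71, 2.98 and 2.20 in the arrays labelled Atg5f/f;Vav. The groups overlapped, and the highest and the lowest array were both labelled Atg5f/f;Vav. The group means differed by 0.23 (standard error 0.42, adjusted p = 0.690, limma), with control the lower, and by −0.003 after quantile normalisation. *Dntt* was well above background on all 6 arrays, and *Rag1* on 1.

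*Satb1* encodes a nuclear protein that organises chromatin loops and promotes the lymphoid potential of stem cells and progenitors. It had 5 tested probes, and all 5 had a lower mean in the arrays labelled Atg5f/f;Vav, with log2 differences of −0.34 to −1.16. The dimmest was well above background on 2 control arrays and 1 other. Its difference of −0.59 (standard error 0.68) turned to 0.07 without Atg5f/f;Vav replicate 3. The brightest (mm9 chr17:51879137-51879196, minus strand) had log2 signals of 2.47, 2.61 and 2.62 in control and 2.73, 2.11 and 1.46 in the others. The controls were tight, whereas 1 array labelled Atg5f/f;Vav lay above them and the other two below. The difference was −0.47 (standard error 0.30, adjusted p = 0.249, limma), and it passed the threshold without Atg5f/f;Vav replicate 1 (−0.79, adjusted p = 0.0367).

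The fourth brightest *Satb1* probe (chr17:51963968-51964027) lay upstream of the brightest on the minus strand and was designed on an Ensembl transcript with no RefSeq mRNA behind it. Its log2 signals were −0.74, −0.44 and −0.93 in control and −1.25, −1.69 and −2.64 in the others, without overlap. The difference was −1.16 (standard error 0.34, adjusted p = 0.0402, limma). The call was lost without control replicate 1, 2 or 3, without Atg5f/f;Vav replicate 2 and after quantile normalisation (adjusted p = 0.0595). The 2 probes designed on RefSeq mRNAs gave −0.47 and −0.34, and the 3 designed on other transcripts −0.61, −1.16 and −0.59. Whether these probes differ in their change was not tested.

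*Ikzf1* encodes Ikaros, a zinc finger protein on which early lymphoid development depends. Its brightest probe reached from 11658319 to 11661278 on chromosome 11 of mm9 (plus strand), a span of 2960 bases for 60 bases of probe, and so crosses a splice junction. The log2 signals were 2.58, 2.56 and 2.66 in control and 2.31, 2.28 and 2.18 in the arrays labelled Atg5f/f;Vav. The groups were apart and each was tight. The residual SD was at percentile 4.83 of all tested genes, the lowest of the 8. The difference was −0.34 (standard error 0.10, adjusted p = 0.0420, limma), a ratio of 0.788. It lost its call with any 1 array left out (adjusted p of 0.058 to 0.129), while the difference stayed between −0.37 and −0.30. The size rose to −0.57 after quantile normalisation.

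The other *Ikzf1* probes did not all go the same way. A probe at 11661344-11661403, not designed on a RefSeq mRNA, gave −0.30 (adjusted p = 0.0918) with groups that did not overlap, and a dimmer probe at 11658239-11658298, on the upstream side of the junction probe, gave −0.22 (adjusted p = 0.215). The probe at 11671462-11671521, which starts at base 3983 of the transcript and is the nearest to its 3′ end, gave 0.21 (adjusted p = 0.249). The mean over the 4 probes was −0.16. The junction probe, which carries the call, and the upstream probe that begins close to it were the following:
Ikzf1 upstream probe: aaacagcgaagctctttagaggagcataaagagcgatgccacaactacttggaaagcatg
Ikzf1 junction probe: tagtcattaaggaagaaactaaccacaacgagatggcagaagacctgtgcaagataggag

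*Ebf1* encodes a transcription factor that specifies the B lineage. Its brightest probe (mm9 chr11:44431517-44431576, plus strand) was designed on an Ensembl transcript. Its letters were found in the RefSeq table of GRCm38.p6 within the window before an *Ebf1* start, from 85 to 26 bases upstream of it, so that a transcript from that start would not hold them. The log2 signals of this probe were −1.11, −1.37 and −0.79 in control and −0.32, −1.25 and −0.97 in the others. Replicate 1 was above the controls and the other two were among them. The difference was 0.25 (standard error 0.27, adjusted p = 0.487, limma). The 2 probes designed on RefSeq mRNAs, at 44818606-44818665 and 44820424-44820483, were dimmer. The last had log2 signals of −3.31, −3.64 and −3.17 in control and −1.63, −3.30 and −2.49 in the others, and gave 0.90 (adjusted p = 0.114). The other gave 0.30 (adjusted p = 0.521). No *Ebf1* probe passed the threshold, and all 3 had the higher mean in the arrays labelled Atg5f/f;Vav.

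*Tcf3* encodes the E2A proteins, the E proteins that activate the first lymphoid and B lineage genes. Its brighter probe (mm9 chr10:79872639-79872698, minus strand) had log2 signals of 1.88, 1.95 and 1.67 in control and 2.05, 2.32 and 2.51 in the arrays labelled Atg5f/f;Vav. The groups did not overlap. The difference was 0.46 (standard error 0.16, adjusted p = 0.0576, limma), just outside the threshold. It passed with normexp background correction (adjusted p = 0.0213), with a filter on all 6 arrays, with an intensity trend and without Atg5f/f;Vav replicate 1. Under the other settings it did not pass. Quantile normalisation gave 0.27 (adjusted p = 0.211, limma). The adjusted p was 0.126 without a filter on dim probes and 0.101 with replicate number as a block (limma). With the methods' t-test it was 0.113.

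The second *Tcf3* probe (chr10:79875963-79876022) had log2 signals of −1.94, −1.81 and −1.82 in control and −1.35, −1.48 and −1.24 in the others. All values of a group lay close together and the groups were apart. The difference was 0.50 (standard error 0.11, adjusted p = 0.0207, limma), and passed the threshold with any array left out other than control replicate 1 (0.0873) or 2 (0.0762). With the 75th percentile taken over the probes that all 6 arrays detected, which moved the median over all tested probes from −0.06 to −0.27, the difference was 0.25 for the brighter probe (adjusted p = 0.214) and 0.30 for the second (adjusted p = 0.0571). The second probe, the only one called higher among those of the 9 genes, has these bases:
Tcf3 second probe: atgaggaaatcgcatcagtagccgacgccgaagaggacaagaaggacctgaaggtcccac

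**Figure D2:**
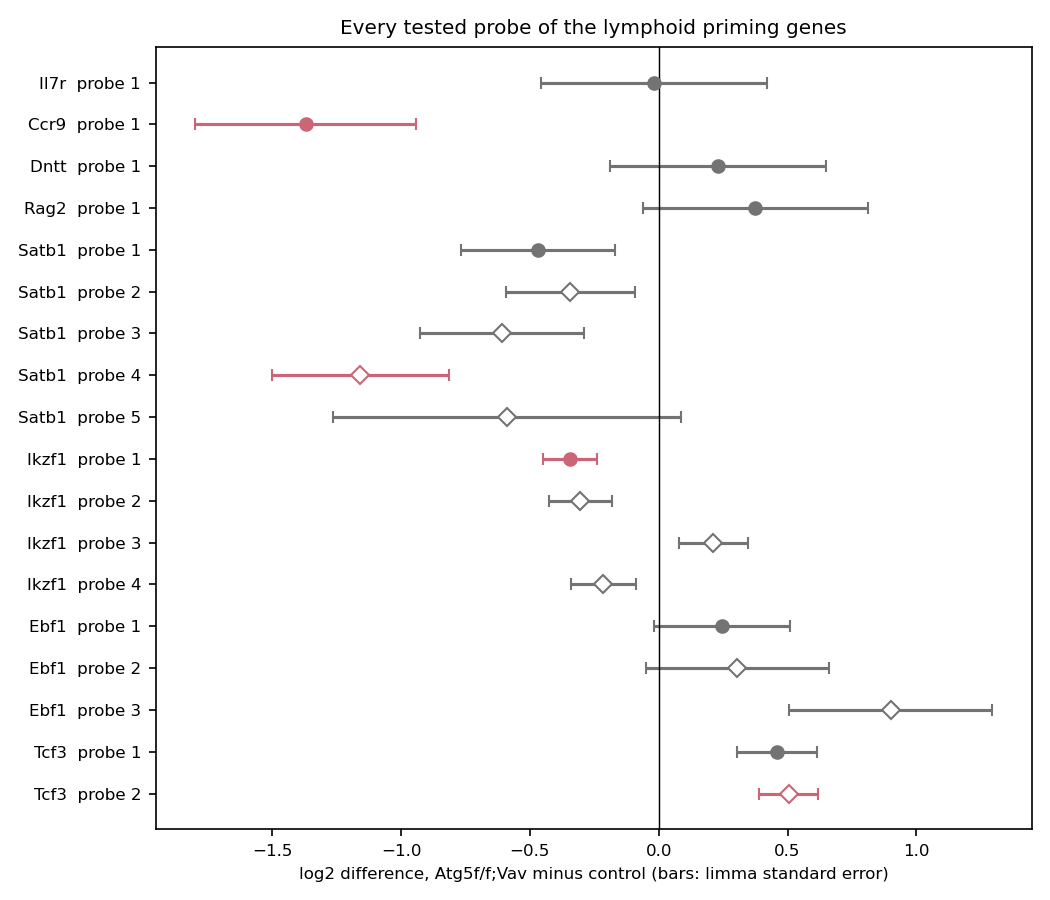
Log2 difference (x axis, Atg5f/f;Vav minus control, bars for limma's standard error) of the 18 tested probes, numbered within each gene from the brightest, with filled circles for the probe that represents the gene, open diamonds for the others, and red for an adjusted p below 0.05. All 5 *Satb1* probes lie below 0, both *Tcf3* probes and all 3 *Ebf1* probes above it, and *Ikzf1* has 3 probes below and 1 above. The dimmest *Satb1* probe was well above background on 2 control arrays and 1 other.

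Of the 8 tested genes, 7 ranged more widely over the 3 arrays labelled Atg5f/f;Vav than the median gene did, the exception being *Ikzf1*. The range over these arrays was 1.75 for *Ccr9*, 1.74 for *Rag2*, 1.57 for *Il7r*, 1.51 for *Dntt* and 1.28 for *Satb1* on the log2 scale, against a median of 0.37 over all tested genes. It was 0.94 for *Ebf1*, 0.47 for *Tcf3* and 0.14 for *Ikzf1*. Over the 3 control arrays the median range was 0.25. There *Il7r*, *Dntt*, *Rag2*, *Ebf1* and *Ccr9* ranged over 1.12, 1.01, 0.82, 0.58 and 0.52. *Tcf3*, *Satb1* and *Ikzf1* ranged over 0.28, 0.15 and 0.11 in control. A wide range was thus found in control too for several of these genes, but not for *Satb1*. The residual SD within groups was at percentile 96.8 to 97.2 of all tested genes for *Il7r*, *Rag2*, *Ccr9* and *Dntt*.

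*Rag1* was not well above background on replicates 2 and 3, so its range and order are not counted here.

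The arrays also fell in the same order for most of the genes. Replicate 1 was the highest and replicate 3 the lowest of the arrays labelled Atg5f/f;Vav for 6 of the 8 tested genes, all but *Ebf1* and *Tcf3*. This order was found for 22.6% of all tested genes, and the opposite one, that of *Tcf3*, for 27.8%. Of 44 tested genes in the 5 lymphoid pathway lists described below, 18 had the order of the 6 genes. Relative to the control mean, replicate 1 was higher by 1.30 for *Rag2*, 0.97 for *Dntt* and 0.74 for *Il7r*, and replicate 3 was at −0.44, −0.54 and −0.84. *Ccr9* was below the control mean on all 3 arrays, at −0.63, −1.10 and −2.38.

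Markers of other cells moved across the same arrays. The median of 8 erythroid markers, relative to the control mean, was 1.16, 2.26 and 3.31 on replicates 1, 2 and 3, and that of 6 stem cell markers −1.01, −1.02 and −2.51. Of 8 neutrophil and monocyte progenitor markers 4 were higher and none lower (1 higher after quantile normalisation and 0 without control replicate 1 or 2), with a summed signal of 94.4 to 199.6 in control and 234.8 to 293.4 in the others. Most of this sum came from the *Mpo* probe, with mean log2 signals of 6.56 in control and 7.57 in the others. Among the uncalled markers, *Elane* and *Cebpe* were at −0.21 and −0.48, and *Ms4a3* and *Csf1r* at 0.64 and 0.33. Of 5 LSK markers 1 was higher, *Ly6a*, which encodes the Sca-1 antigen of the sort gate (1.57, adjusted p = 0.00623, limma), a call kept with each array left out. *Kit*, the other positive marker of the gate, went the other way without passing the threshold (−0.38, adjusted p = 0.0563, limma), with groups that did not overlap. On the same arrays 54.8%, 53.9% and 51.6% of the probes were well above background. The part of these in the values of the 9 genes was not tested. Without replicate 3, the difference was 0.39 for *Il7r* and 0.61 for *Dntt*, neither past the threshold, and −0.86 for *Ccr9* (still called), and without replicate 1 it was −0.40, −0.14 and −1.74.

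**Figure D3:**
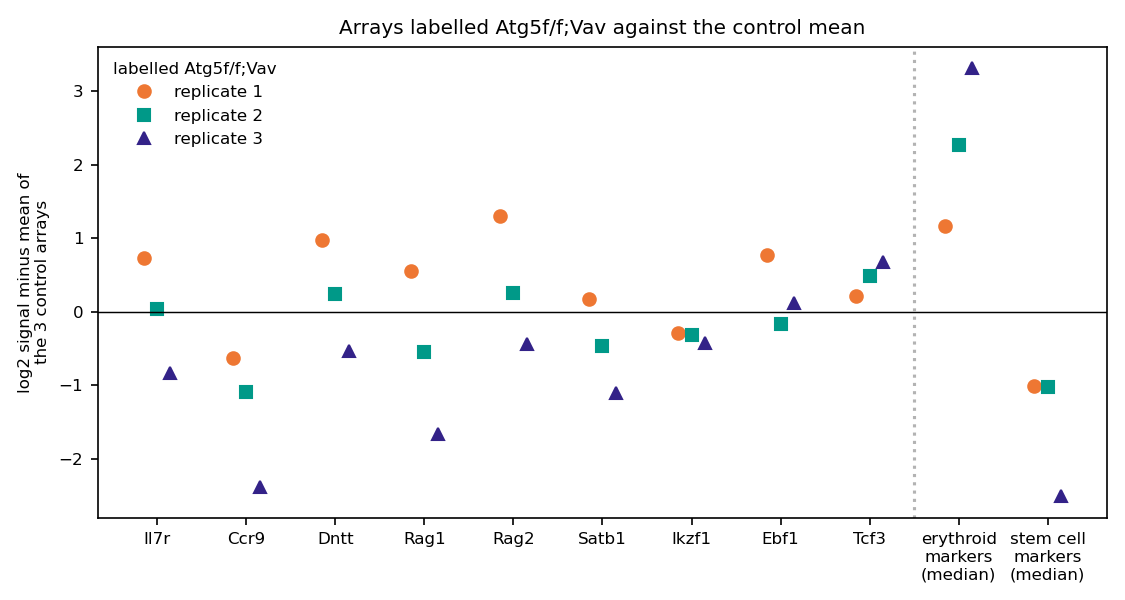
Log2 signal of each array labelled Atg5f/f;Vav minus the mean of the 3 control arrays (y axis) for the 9 genes and for the median of the erythroid and the stem cell markers. Replicate 1 (circles) is above replicate 3 (triangles) for 7 of the 8 tested genes, *Tcf3* being the exception, *Rag1* is at background on replicates 2 and 3, and the erythroid median runs from 1.16 on replicate 1 to 3.31 on replicate 3.

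Genes that work with these 9 were taken from 5 lists: early lymphoid progenitor genes, relatives of Ikaros, E proteins and their Id inhibitors, the interleukin-7 receptor pathway, and partners in V(D)J recombination. Of their 45 genes reported, 44 were tested, 3 were called higher and 4 lower, and the median log2 difference was −0.02. These counts are below the shares of all genes given above. Uncalled genes are named below with their values in view, not by a rule.

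Among the 13 early lymphoid progenitor genes reported, 1 was called lower, with a median of −0.30. The count lower was 3 after quantile normalisation and with the 75th percentile over the probes that all 6 arrays detected, 4 without Atg5f/f;Vav replicate 1, and 0 without control replicate 1 or 2. The scaling over probes that all 6 arrays detected raised calls lower over the whole array, from 5484 to 10088 probes. *Notch1*, the receptor whose signal specifies the T lineage, fell from 2.16, 2.72 and 1.97 in control to 0.23, 0.61 and −0.67, a difference of −2.23 (adjusted p = 0.0146, limma). *Flt3*, the cytokine receptor of lymphoid-primed progenitors, was at 4.31, 4.47 and 4.30 in control and 4.18, 3.44 and 2.85 in the others. All 3 arrays were below the controls, without passing the threshold (−0.87, adjusted p = 0.0675).

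The 4 relatives of Ikaros had a median of −0.54. *Ikzf2*, which encodes Helios, was lower (−0.81, adjusted p = 0.0400, limma), and no relative was higher. *Ikzf3*, *Ikzf4* and *Ikzf5* were at −0.35, −0.74 and −0.02, none past the threshold. With the 75th percentile over the probes that all 6 arrays detected, 3 of the 4 were called lower. That scaling called 10088 probes lower on the whole array, against 5484 in the main fit, so the rise is not particular to these genes.

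No E protein or Id gene was called among the 5 tested. *Tcf4* and *Tcf12*, which encode the other E proteins, were at −0.27 and −0.20, opposite in sign to *Tcf3*. *Id1*, *Id2* and *Id3*, whose products hold E proteins off DNA, were at 0.33, 0.51 and 0.07. *Id4* was not well above background on any array. Whether *Tcf3* differed from its relatives in its change was not tested.

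In the interleukin-7 receptor pathway, 2 of 11 genes were higher and 1 was lower. After quantile normalisation, and with the 75th percentile over the probes that all 6 arrays detected, 1 was higher and 3 were lower. The latter scaling raised calls lower over the whole array, as given above. *Socs1*, an inhibitor of JAK kinases, rose from −1.06, −0.71 and −0.93 to 0.21, 0.29 and 0.71, a difference of 1.31 (adjusted p = 0.0114, limma). *Bcl2*, a survival gene that acts below the receptor, rose by 0.67 (adjusted p = 0.0333). *Foxo1*, which activates *Il7r* and the *Rag* genes in lymphoid cells, fell by 0.63 (adjusted p = 0.0340). *Il2rg*, the chain with which the *Il7r* product pairs, was at 0.32 (adjusted p = 0.0625).

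Among 11 partners in V(D)J recombination, 1 was higher and 1 lower. *Hmgb2*, whose product helps the recombinase bind DNA, rose by 0.44 (adjusted p = 0.0406, limma), but by only 0.07 under the scaling that moved that value most. *Xrcc4*, of the end-joining ligase complex, fell by 0.49 (adjusted p = 0.0322). *Polm*, a polymerase related to the *Dntt* product, was at 1.06 (adjusted p = 0.0576) and so just outside the threshold. All 7 calls in the 5 lists were lost without control replicate 1, and only *Socs1* kept its call without control replicate 2.

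Lymphocyte markers were present in part. Of 13 B cell markers 11 were tested, with 2 higher and 1 lower and a median of 0.68. Over all tested genes, 18.7% were called higher and 15.3% lower. The summed signal of the B cell markers (linear, relative to the 75th percentile) was 11.03 to 14.85 in control and 13.1 to 21.8 in the others. The largest part of this sum came from the *Cd79b* probe, which itself was at −0.125 (adjusted p = 0.624, limma). The sum is therefore not an even measure of the list. *Cd79a*, a chain of the B cell receptor, was called higher (0.95, adjusted p = 0.0227, limma). It was above background in control on 1 array of 3, so it passed the filter through the other group, and its difference was 0.32 to 1.31 under the other scalings and background correction. *Pou2af1*, a B cell coactivator, rose by 0.97 (adjusted p = 0.0411), and *Cd22*, an inhibitory receptor of B cells, fell by 0.59 (adjusted p = 0.0452). All 3 calls were lost without control replicate 1 or 2. *Vpreb1* and *Igll1*, which encode the surrogate light chain of B cell precursors, were at 1.25 and 1.56 with overlapping groups, and *Blk* was not well above background on any array.

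Of 18 T and NK cell markers 11 were tested and none was called, and *Cd3g*, *Cd8a* and *Ncr1* were not well above background on any array. Their summed signal was 18.4 to 22.5 in control and 19.1 to 22.4 in the others. Of 7 plasmacytoid dendritic cell markers, of which *Ccr9* is one, 6 were tested. *Ccr9* was lower and *Cox6a2* higher (1.15, adjusted p = 0.0397, limma), while *Siglech*, a defining surface receptor of these cells, was at −0.14 (adjusted p = 0.435) with overlapping groups. The *Cox6a2* call remained with control replicate 3 left out and was lost without any other array. The summed signal of this list was 155.9 to 188.8 in control and 144.5 to 171.6 in the others. Most of this sum came from the *Siglech* probe, with mean log2 signals of 7.26 in control and 7.12 in the others. The sum is therefore not a measure separate from *Siglech*. The part of these cells in the *Ccr9* value was not tested.

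**Figure D4:**
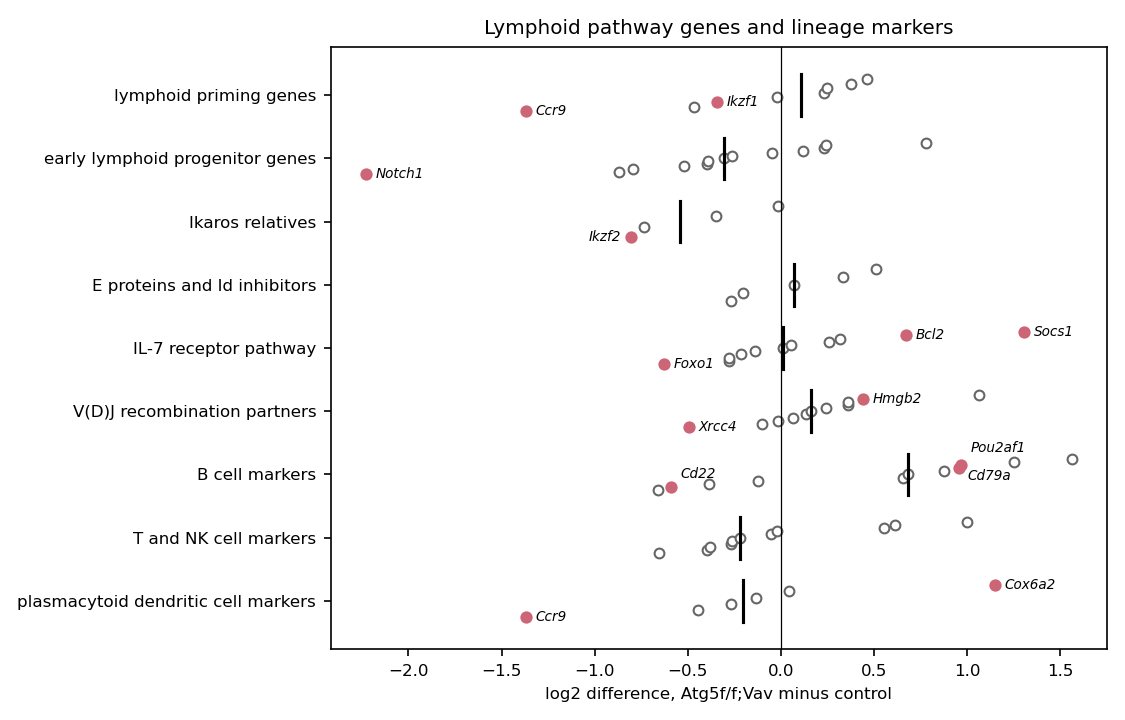
Log2 difference (x axis, Atg5f/f;Vav minus control) of each tested gene of the 9 lymphoid priming genes, of the 5 pathway lists and of 3 lists of lymphoid and dendritic cell markers, with red points and names for an adjusted p below 0.05 and a black line at each list's median. No list has more than 3 called genes, and the called genes of each list with over 1 call lie on both sides of 0 except for the 9 lymphoid priming genes, where both are lower.

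The windows of 250 bases before the starts of these genes were read from the RefSeq table of GRCm38.p6, in which all 9 were matched, with 15 windows in all. The E-box CAGGTG, a motif that E proteins bind, was searched on both strands and was found in 3 of the 15 windows, against 17.2% of all 32851 windows of that length. It lay 135 bases before the start of *Rag1*, 85 before that of *Ccr9* and 172 before 1 of the *Satb1* starts. The letters TGGGAA, which Ikaros binds, were found in 3 windows, those of *Rag1*, 1 *Ebf1* start and 1 *Satb1* start, against 21.6% of all windows. The *Rag1* and *Ccr9* windows hold the E-box before a single start, and show a gene that was barely detected and the gene of the largest decrease among the 9. They are printed on the strand of the gene, with the E-box and the TGGGAA letters in capitals. The first lies at chr2:101649533-101649782, minus strand, and the second at chr9:123766961-123767210, plus strand.
Rag1 window: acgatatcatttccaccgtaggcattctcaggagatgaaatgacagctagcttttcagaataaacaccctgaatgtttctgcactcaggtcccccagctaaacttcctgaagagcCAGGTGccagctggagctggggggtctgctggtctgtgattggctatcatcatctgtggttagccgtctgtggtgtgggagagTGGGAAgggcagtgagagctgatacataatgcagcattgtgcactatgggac
Ccr9 window: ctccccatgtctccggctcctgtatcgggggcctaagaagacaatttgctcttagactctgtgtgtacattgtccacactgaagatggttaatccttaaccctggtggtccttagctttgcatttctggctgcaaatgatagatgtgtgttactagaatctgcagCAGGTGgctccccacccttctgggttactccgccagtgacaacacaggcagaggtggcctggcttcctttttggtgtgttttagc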

How the data were processed

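LSK RNA of 3 control and 3 Atg5f/f;Vav samples was labelled with Cy3 and hybridised to 1-colour Agilent arrays designed on mm9. The authors deposited the intensity of each spot, background-subtracted and detrended within the array by Agilent Feature Extraction 12.0.3.1 per the submitters' processing notes, and a table of normalised signal, the intensity divided by the array's own 75th percentile over all spots. From the deposited intensity, log2 values were taken minus the 75th percentile over the 59305 non-control spots. Outlier-flagged spots were left out (no value of the 9 genes was dropped), and spots of 1 probe were averaged. The test was that of limma 3.58.1 (lmFit and eBayes, 2-sided, R 4.3.3) on all 6 arrays with no covariate, and the steps were tested on simulated data. Arrays give no read depth, so the precision is set by how many there are. Groups and replicate numbers follow the sample titles. Whether equal replicate numbers mark paired samples was not known, and the main fit did not pair them. The 3 same-number correlations of deviations from the group mean were −0.07, 0.19 and 0.11. With 3 arrays per group these cannot decide it. The genes and lists were chosen with earlier results of these data known. Named were all 9 genes with every probe, the called genes of each pathway and lymphoid list, and defining markers near background, and further uncalled genes were singled out with their values in view. As alternatives, the background was corrected by normexp (offset 50), the arrays were scaled by quantiles, by the 75th percentile of probes that all 6 arrays detected or as in the deposited table, the filter was dropped or set to all 6 arrays, outlier spots were kept, eBayes was given an intensity trend, the methods' t-test was run, replicate number was entered as a block, a gene's probes were averaged, and each array was left out. Sequences of promoters come from RefSeq (GRCm38.p6) and those of probes from the scanner files. A gene of the early lymphoid progenitor list is not reported here and was left out of that list's counts and median.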

Additional observations from a re-analysis of the deposited data

How the results depend on the processing

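With each gene taken by its representing probe or by the mean of its tested probes, *Ccr9*, *Ikzf1*, *Satb1* and *Tcf3* kept their direction under every alternative run. Without a filter on dim probes 4538 probes were called in place of 11024, and with the methods' t-test 0 after Benjamini-Hochberg adjustment (13541 at an unadjusted p under 0.05, with 2 of the 8 genes). With 1 array left out the count was 251 to 10304, the lowest being 330 and 251 without control replicate 1 or 2. With the 75th percentile of the probes that all 6 arrays detected, 3371 calls were higher and 10088 lower, against 5540 and 5484. The count of the 9 genes called higher rose from 0 to 1 (*Tcf3*) with normexp, with a filter on all 6 arrays and with an intensity trend, and was 0 to 1 with 1 array left out. The count called lower fell from 2 to 1 after quantile normalisation and with the deposited values, and to 0 without a filter and with the methods' t-test, and was 0 to 2 with 1 array left out (0 without any control array or Atg5f/f;Vav replicate 2). With the replicate number as a block, 1 gene was lower, since *Ikzf1* reached an adjusted p of 0.0701, and 10173 probes were called. The samples share only a number, and the same-number correlations were −0.07, 0.19 and 0.11. Signs turned for *Il7r* with normexp (0.00077), quantile normalisation (0.020), the deposited values (0.0028), and without control replicate 2 (0.29) or Atg5f/f;Vav replicate 3 (0.39), for *Dntt* after quantile normalisation (−0.0035) and without Atg5f/f;Vav replicate 1 (−0.14), and without that array for *Ebf1* (−0.020) and *Rag2* (−0.09). With 1 array left out the difference was −0.40 to 0.39 for *Il7r*, −0.14 to 0.61 for *Dntt*, −0.02 to 0.45 for *Ebf1* and −0.09 to 0.78 for *Rag2*. None of these passed the threshold, and the causes were not tested. *Rag1* and the dimmer *Rag2*, *Ccr9* and *Il7r* probes are limited by signal over background.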
